A study of Mus musculus with 11 samples.

Results

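Protein-coding sequence makes up only a small part of most mouse genes, and most of it lies far inside the gene, away from the promoter. The regions described here are the merged coding exons of at least 100 bp of protein-coding genes on chromosomes 1 to 19 that lay over 5 kb from every annotated transcription start site (TSS), leaving out genes whose symbols start with Zfp, Hist or Pcdh. By this rule 65608 of 196505 merged coding exons were members, and 64169 of them lay outside the 100 kb tiles discarded for high background. Chromatin immunoprecipitation and sequencing (ChIP-Seq) reads were counted by the midpoint of their interval inside each exon and from 500 to 2000 bp to either side, which are called the flanks. The value used throughout is the log2 ratio of midpoints per bp in the exons over midpoints per bp in the flanks, pooled over the exons of a group.

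The 11 libraries came from mouse cells of the strain background 129 X C57bl/6, with 1 library per condition. KH2 ES cells carried the transactivator M2rtTA at ROSA26 and a doxycycline (Dox) inducible cassette for an HA-tagged histone downstream of Col1a1. HA-H3.3 ES cells were given Dox at 2 µg/ml for 3 or 6 hours, and HA-Macro ES cells, which carry HA-tagged MacroH2A2, for 3, 6 or 12 hours or not at all. HA-Macro MEFs, grown from chimeric embryos, selected with puromycin and so derived only from the injected ES cells, were given Dox at the same dose for 3, 6 or 12 hours. An antibody against MacroH2A2 itself was used on ES cells and on MEFs, and each of these libraries combines replicates. The labels give these as untreated parental KH2 ES cells and wild type MEFs, whereas the paper also describes this antibody on HA-Macro cells with and without Dox, so that only antibody and cell type are used here. ES cells were pre-plated to deplete feeder cells. Anti-HA in ES cells without Dox is the background library. The paper describes trace promoter signal in it, likely from leaky HA-MacroH2A2 or else from artifactual recovery of open chromatin. It may therefore hold some HA-Macro. It shares antibody, cells and interval length with the HA-Macro ES libraries only, so that it is no matched background for the others.

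Depth ranged from 6488112 intervals for HA-H3.3 at 3 hours to 20541627 for HA-Macro MEFs at 12 hours. Intervals were 150 bp long in every HA-Macro library and 400 bp long in the other 4, so that interval length cannot be told apart from the antibody or tagged histone. HA-Macro ES at 3 hours stood apart from the other HA-Macro libraries by the share of distinct intervals on chromosome Y, 0.112% against 0.0198% to 0.0244%. That share was 0.102% and 0.0673% for HA-H3.3 ES at 3 and 6 hours, and 0.100% and 0.0423% for anti-MacroH2A2 in ES cells and MEFs. Only autosomes were used below, which does not remove a difference between cultures. With 1 library per condition no test was made. Intervals given are 95% counting intervals (exact Clopper-Pearson for a ratio by midpoints in the exon). They cover counting error only and not the variation between cultures. They treat midpoints as independent. Flanks of nearby exons overlap, with 74.4% of their bases distinct, and 3.27% to 6% of intervals in HA-Macro libraries are repeats. The intervals are thus likely too narrow even for counting error.

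Exons are joined by the spliceosome, which recognizes a 3′ splice site at the end of an intron, marked by a run of pyrimidines and an AG, and a 5′ splice site after the exon. Coding exons are richer in G and C than the introns around them, and nucleosomes are known to be favored by such sequence, so exons often show as short peaks of histone signal. H3.3 is a replacement variant of histone H3 that is deposited independently of DNA replication, and MacroH2A2 is a variant of H2A with a large globular domain. Sequences around the start of a few internal exons are printed to show the step in base composition from intron to exon. They belong to exons that the naming rule given below selects, and do not stand for all members. They were read from the mm9 genome, 5′ to 3′ along the gene, with 60 intron bases in lower case and the first 60 exon bases in capitals. Pmel encodes a fibril-forming protein of melanosomes, Ttn the giant sarcomere protein titin, and Lrrc37a a leucine-rich repeat protein.
Pmel, chr10:128152923-128153042, plus strand: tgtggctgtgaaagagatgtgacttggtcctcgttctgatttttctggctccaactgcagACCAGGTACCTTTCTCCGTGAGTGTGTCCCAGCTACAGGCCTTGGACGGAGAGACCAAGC
Ttn, chr2:76591167-76591286, minus strand: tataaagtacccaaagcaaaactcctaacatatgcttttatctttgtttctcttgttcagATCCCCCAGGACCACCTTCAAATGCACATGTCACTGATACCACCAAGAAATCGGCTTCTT
Lrrc37a, chr11:103319369-103319488, minus strand: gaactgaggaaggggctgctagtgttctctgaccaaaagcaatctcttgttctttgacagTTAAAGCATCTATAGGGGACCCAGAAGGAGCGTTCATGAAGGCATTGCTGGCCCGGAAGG
In each of the 3 the intron ended in AG and the exon part held more GC than the intron part. The GC content stepped from 48.3% to 58.3% in Pmel, from 31.7% to 48.3% in Ttn and from 46.7% to 53.3% in Lrrc37a.

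The members outside the discarded tiles covered 13.1 Mb in 11108 genes, with a median length of 152 bp and an upper quartile of 193 bp. Of them, 58944 (91.9%) were shorter than 300 bp, 2776 were 500 bp or longer and 949 were 1000 bp or longer. Most, 44199, were internal exons, with at least 3 coding exons before and 2 after. A further 6278 were the last coding exon of their gene and 882 the first, and 245 were the only coding exon. Median GC content was 50.5% in exons and 43.6% in flanks, and 86.5% of exons held more GC than their own flanks. The dinucleotide CpG, the site of DNA methylation in mammals, occurred 2.54 times per 100 bp in exons and 1.02 times in flanks. Single short exons held few reads. The median member held between 0 midpoints (HA-H3.3 at 3 hours) and 2 (HA-Macro ES at 3 hours). Short exons are therefore described only by pooling them or by a median over many of them.

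Midpoints were denser in coding exons than in their flanks in all 11 libraries, the background library included. Levels are given as midpoints per Mb per 1000000 reads of the library. They are relative to the rest of each library, so that a lower level is not by itself a loss of histone. Anti-MacroH2A2 in ES cells had the largest ratio, 873 in exons against 516 in flanks, or 1.69-fold (log2 0.76, interval 0.75 to 0.77). In MEFs the same antibody gave 580 against 407, or 1.43-fold (log2 0.51, 0.50 to 0.52). HA-H3.3 gave 715 against 524 at 3 hours (log2 0.45, 0.44 to 0.46) and 721 against 538 at 6 hours (log2 0.42, 0.41 to 0.43). Anti-HA in ES cells without Dox gave 520 against 415, or 1.25-fold (log2 0.33, 0.32 to 0.34), the smallest ratio of the 11. The median log2 ratio over single exons with at least 10 flank midpoints was 0.54 without Dox and 0.50 for the antibody in ES cells. For it, 0.5 reads were added to each exon and flank count, which raises the ratio of short exons with few midpoints. It also uses a different set of exons in each library (58517 without Dox and 40687 for the antibody). By this measure the background library was not the lowest, and the part of the added reads in that was not tested.

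The induced HA-Macro libraries lay above this background by less than the background itself lay above 0 in ES cells, and by about as much in MEFs. HA-Macro ES cells gave log2 ratios of 0.48, 0.45 and 0.47 after 3, 6 and 12 hours of Dox, which is 0.16, 0.13 and 0.14 above the library without Dox. HA-Macro MEFs gave 0.69, 0.59 and 0.60, which is 0.36, 0.27 and 0.28 above it. The background library is from ES cells, and no library of MEFs without Dox was used here, so the difference in MEFs joins the change of cell type with that of Dox. Each ratio was above 0 on 19 of 19 autosomes in every library, with a standard deviation over autosomes between 0.040 (HA-Macro ES at 12 hours) and 0.087 (anti-MacroH2A2 in ES cells).

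**Figure D1:**
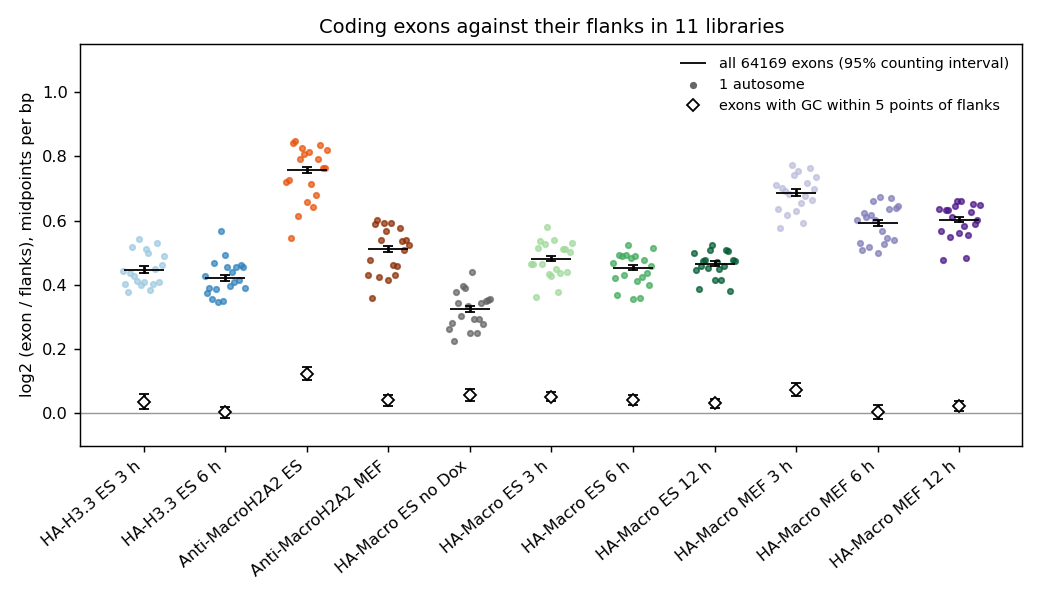
Log2 ratio of midpoints per bp in coding exons over their flanks (y axis) for each library (x axis). Black bars with 95% counting intervals are all 64169 exons, colored points are the 19 autosomes, and open diamonds are exons whose GC content is within 5 points of their flanks. All bars lie between 0.33 and 0.76, and the diamonds between 0.0034 and 0.12.

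The excess was narrow and sat on the exon. Around the 49596 exons of 100 to under 200 bp with a strand, the signal from 300 to 500 bp away was between 0.960 and 1.02 times that beyond 1000 bp in every library. At the exon centre it was 1.26-fold without Dox, 1.32-fold to 1.34-fold in induced HA-Macro ES cells and 1.44-fold to 1.54-fold in HA-Macro MEFs. The 400 bp libraries had a different shape over these short exons. Their midpoints formed a pair of shoulders beside the exon with a lower centre. In anti-MacroH2A2 ES cells the shoulders, in the bins from 50 to 100 bp before and 100 to 150 bp after the centre, reached 1.44-fold and 1.50-fold, against 1.32-fold at the centre. In anti-MacroH2A2 MEFs they lay from 100 to 150 bp before and 150 to 200 bp after it, at 1.29-fold and 1.37-fold against 1.17-fold. No pair of shoulders was seen in the 150 bp libraries, whose highest bin was the 50 bp after the centre in all 7. Over the 2443 exons of 300 to under 500 bp no such dip was seen, and the centre stood at 1.46-fold without Dox to 2.67-fold with anti-MacroH2A2 in ES cells. In the libraries with shoulders, a part of the midpoints in excess thus lay outside the short exons.

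**Figure D2:**
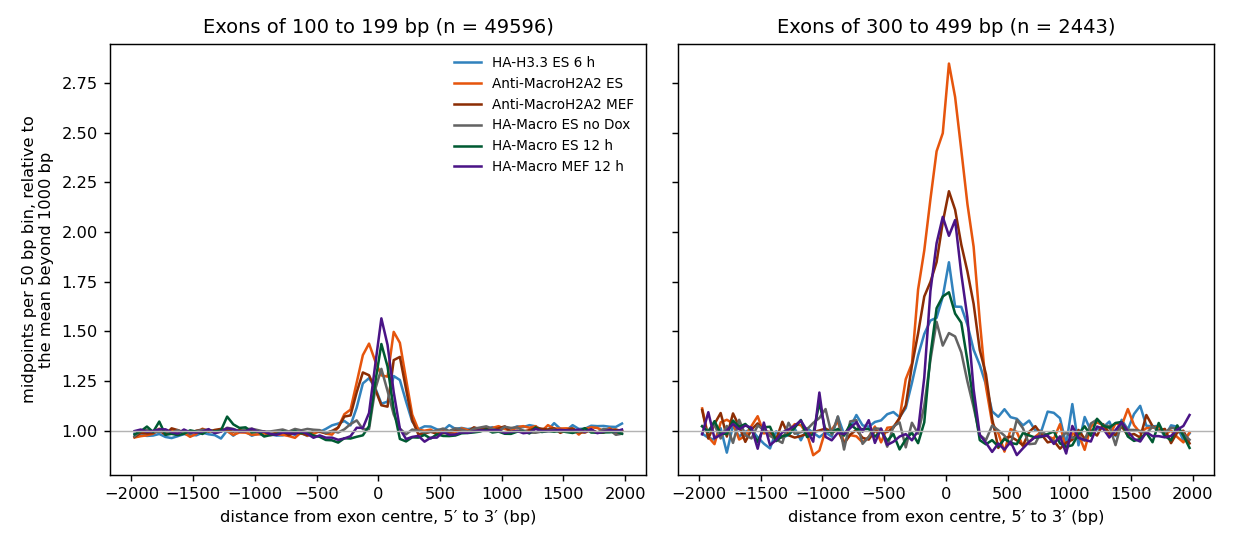
Midpoints per 50 bp bin, relative to the mean of the bins beyond 1000 bp (y axis), against the distance from the exon centre in bp (x axis), for exons of 100 to under 200 bp on the left and of 300 to under 500 bp on the right in 6 libraries. The 400 bp libraries (HA-H3.3 and anti-MacroH2A2) show a pair of shoulders over short exons, up to 1.50-fold for anti-MacroH2A2 in ES cells, and none over the longer ones.

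When all midpoints from 400 bp before to 400 bp after the exon were counted, and their excess over the flank density was assigned to the exon, the 4 libraries with 400 bp intervals lay above the others. This count was added after the shoulders were seen. The log2 ratio was then 1.22 for anti-MacroH2A2 in ES cells (interval 1.21 to 1.23) and 0.93 in MEFs. It was 0.85 and 0.79 for HA-H3.3 at 3 and 6 hours. The library without Dox stood at 0.37, close to its value by midpoints, and HA-Macro ES cells stood at 0.56, 0.44 and 0.38 after 3, 6 and 12 hours. HA-Macro MEFs stood at 0.70, 0.58 and 0.61. By this count the ES library at 12 hours did not lie above the background library beyond their intervals, which were 0.37 to 0.40 and 0.35 to 0.39.

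By midpoints the ratio was larger for longer exons up to 300 to under 500 bp in all 11 libraries. In anti-MacroH2A2 ES cells it went from 0.35 at 100 to under 150 bp through 0.54 at 150 to under 200 bp to 1.29 at 300 to under 500 bp and 1.34 at 1000 to under 2000 bp. The 220 exons of 2000 bp and over were lower again, at 0.82. HA-Macro ES cells at 12 hours went from 0.32 at 100 to under 150 bp to 0.61 at 300 to under 500 bp and 0.33 at 2000 bp and over. The library without Dox went from 0.25 to 0.50 and then 0.037, with a counting interval that included 0 (-0.029 to 0.10).

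**Figure D3:**
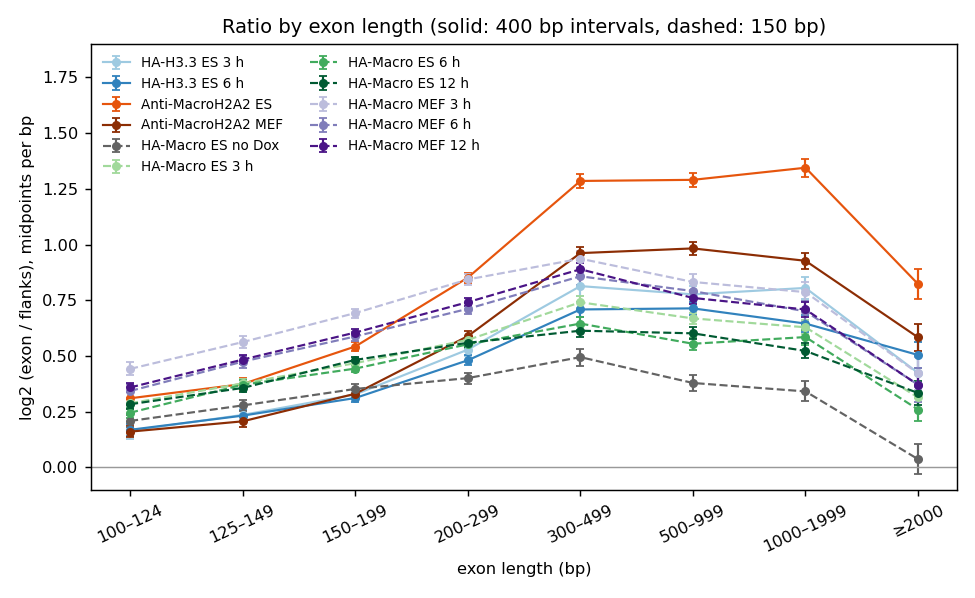
Log2 ratio of midpoints per bp in exons over flanks (y axis) by exon length in bp (x axis) for 11 libraries, with 95% counting intervals. Solid lines are libraries with 400 bp intervals and dashed lines those with 150 bp intervals. Anti-MacroH2A2 in ES cells reaches 1.34 at 1000 to under 2000 bp, and each of the 11 libraries is lower at 2000 bp and over.

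The 949 exons of 1000 bp and over exceeded the 30918 of 100 to under 150 bp by 0.80 in anti-MacroH2A2 ES cells (interval 0.76 to 0.84) and by 0.60 in MEFs (0.56 to 0.63). The difference was 0.46 and 0.37 for HA-H3.3 at 3 and 6 hours. In induced HA-Macro libraries it was between 0.11 and 0.18, and without Dox it was -0.015 (-0.056 to 0.026). Most of this difference was gone in the 400 bp libraries once the excess within 400 bp was assigned to the exon. It was then 0.09 in anti-MacroH2A2 ES cells, 0.0030 in MEFs and -0.13 and -0.17 for HA-H3.3 at 3 and 6 hours. Among exons with GC within 5 points of their flanks the midpoint difference was 0.23 and 0.13 for the antibody in ES cells and MEFs and 0.0013 and -0.044 for HA-H3.3. In HA-Macro ES cells it was 0.0014, 0.13 and 0.23 at 3, 6 and 12 hours, in MEFs 0.057, 0.070 and 0.058, and without Dox -0.015. Midpoints of the 150 bp libraries were also moved to both sides to imitate 400 bp intervals, and the difference was then 0.16 without Dox and 0.35 to 0.44 in the induced libraries. Among internal exons alone the midpoint difference was 0.52 in anti-MacroH2A2 ES cells but lay below 0 in 5 of the 6 induced HA-Macro libraries, down to -0.17 in HA-Macro MEFs at 3 hours, and was -0.17 without Dox as well.

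Coding exons at the ends of genes had larger ratios than internal ones. In anti-MacroH2A2 ES cells the ratio was 1.27 for first, 0.63 for internal and 1.08 for last coding exons. Those in MEFs were 0.90, 0.40 and 0.77. HA-H3.3 at 6 hours gave 0.70, 0.34 and 0.59. Without Dox the same groups stood at 0.38, 0.32 and 0.38, and the first exons did not exceed internal ones beyond the counting interval (0.058, -0.010 to 0.13). Last exceeded internal exons by 0.45 in anti-MacroH2A2 ES cells (0.42 to 0.48) and by 0.073 in HA-Macro ES cells at 12 hours (0.052 to 0.094).

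These differences varied with exon length. Among exons of 100 to under 300 bp, last exceeded internal exons by 0.24 in anti-MacroH2A2 ES cells (0.20 to 0.28), while in HA-Macro ES cells at 12 hours the difference was -0.0086 (-0.042 to 0.024) and without Dox it was -0.010 (-0.054 to 0.034). First exceeded internal exons of that length by 0.18 in anti-MacroH2A2 ES cells and by 0.13 in HA-Macro ES cells at 12 hours, and the difference was 0.10 without Dox (-0.0053 to 0.21). Among exons of 500 bp and over, last exceeded internal ones in all 11 libraries, by 0.20 without Dox (0.14 to 0.27), by 0.23 in HA-Macro ES cells at 12 hours and by 0.31 in anti-MacroH2A2 ES cells (0.25 to 0.37). Over all lengths, last and first coding exons differed less from each other. The last were lower by 0.19 in anti-MacroH2A2 ES cells (interval of last minus first -0.25 to -0.12), and without Dox the difference was 0.00040 (-0.071 to 0.072). Among exons of 100 to under 300 bp the difference in anti-MacroH2A2 ES cells had the other sign, at 0.064. At that length last and first exons stood at 0.32 and 0.43 without Dox and at 0.44 and 0.58 in HA-Macro ES cells at 12 hours. In these libraries they were farther apart than last and internal exons.

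The excess was present at every distance from the TSS. In anti-MacroH2A2 ES cells the ratio was 0.77 at 5 to 10 kb and 0.74 beyond 100 kb. In HA-Macro ES cells at 12 hours it was 0.46 at 5 to 10 kb and 0.60 beyond 100 kb, and in MEFs at 12 hours 0.59 and 0.73. The library without Dox went the other way, from 0.36 to 0.29. The 60221 coding exons of at least 100 bp within 5 kb of a TSS, which the rule left out, had ratios of similar size. These were 0.83 for anti-MacroH2A2 in ES cells, 0.64 in MEFs, 0.40 without Dox and 0.50 and 0.63 in HA-Macro ES cells and MEFs at 12 hours. The 518 distant coding exons of Zfp genes, a family of zinc finger repressors whose last exons are long and repetitive, stood at 0.81 for anti-MacroH2A2 in ES cells and at 0.22 without Dox.

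Base composition moved with the ratio in every library. Exons with less than 40% GC had ratios of -0.22 in anti-MacroH2A2 ES cells, -0.32 in HA-Macro ES cells at 12 hours and -0.38 in MEFs at 12 hours. Exons with 60% GC or more had 1.53, 0.90 and 1.18. Without Dox these groups stood at 0.011 and 0.90. The order was the same when exons were grouped by their difference in GC from their own flanks. In HA-Macro MEFs at 12 hours the ratio was -0.80 for exons at least 5 points poorer in GC than their flanks and 1.53 for those at least 15 points richer, and without Dox it was -0.097 and 0.80. Across the exons of 500 bp and over with at least 10 flank midpoints, the GC difference and the log2 ratio had a Spearman correlation of 0.52 in anti-MacroH2A2 ES cells (1642 exons) and of 0.25 without Dox (2518 exons), as a description over exons that share 1 library.

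The 24016 exons whose GC lay within 5 points of their flanks were nearly level with them. Their ratio was 0.12 in anti-MacroH2A2 ES cells (interval 0.10 to 0.14) and 0.041 in MEFs. It was 0.036 and 0.0034 for HA-H3.3 at 3 and 6 hours, the latter with an interval of -0.015 to 0.021. Without Dox it was 0.058 (0.039 to 0.077). The induced HA-Macro libraries lay between 0.0043 (MEFs at 6 hours) and 0.074 (MEFs at 3 hours). None of the HA-Macro ES libraries exceeded the library without Dox among these exons, with differences of -0.0066, -0.015 and -0.027 at 3, 6 and 12 hours.

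Windows of 150 bp at exon centres were also set against flank windows outside annotated exons, a comparison added after the dependence on GC was seen. For the 33251 exons of 150 bp and over, the log2 excess over all flank windows was 0.96 in anti-MacroH2A2 ES cells, and 0.34 over flank windows of equal GC. Against windows of equal GC and equal CpG number it was 0.24. HA-Macro ES cells at 12 hours went from 0.66 to 0.12 and 0.030, and MEFs at 12 hours from 0.83 to 0.19 and 0.092. HA-H3.3 at 6 hours went from 0.54 to 0.085 and -0.11. The library without Dox went from 0.47 to 0.27 and 0.17, and so stood above all 3 induced ES libraries (0.030 to 0.078) at equal GC and CpG. These values depended on the width over which GC was matched. With GC over 550 bp the excess at equal GC was 0.42, 0.34 and 0.34 in HA-Macro ES cells at 3, 6 and 12 hours, 0.45 in MEFs at 12 hours and 0.37 without Dox, so that ES cells at 3 hours then stood above the background library. With CpG matched as well, the same libraries stood at 0.16, 0.10, 0.13, 0.20 and 0.20.

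Exons of 500 bp and over kept more in the 400 bp libraries. At equal GC and CpG the excess was 0.72 in anti-MacroH2A2 ES cells (interval 0.68 to 0.76), 0.57 in anti-MacroH2A2 MEFs, and 0.38 and 0.22 for HA-H3.3 at 3 and 6 hours. In HA-Macro libraries it was between -0.021 and 0.10, the highest being that without Dox. When GC was matched over 550 bp in place of 150 bp, together with CpG, these values were lower, at 0.34 in anti-MacroH2A2 ES cells, 0.24 in MEFs, and 0.12 and -0.038 for HA-H3.3. HA-H3.3 and HA-Macro share the anti-HA antibody but differ in the tagged histone, in interval length and in repeated reads, and the parts of these in the contrast cannot be told apart.

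**Figure D4:**
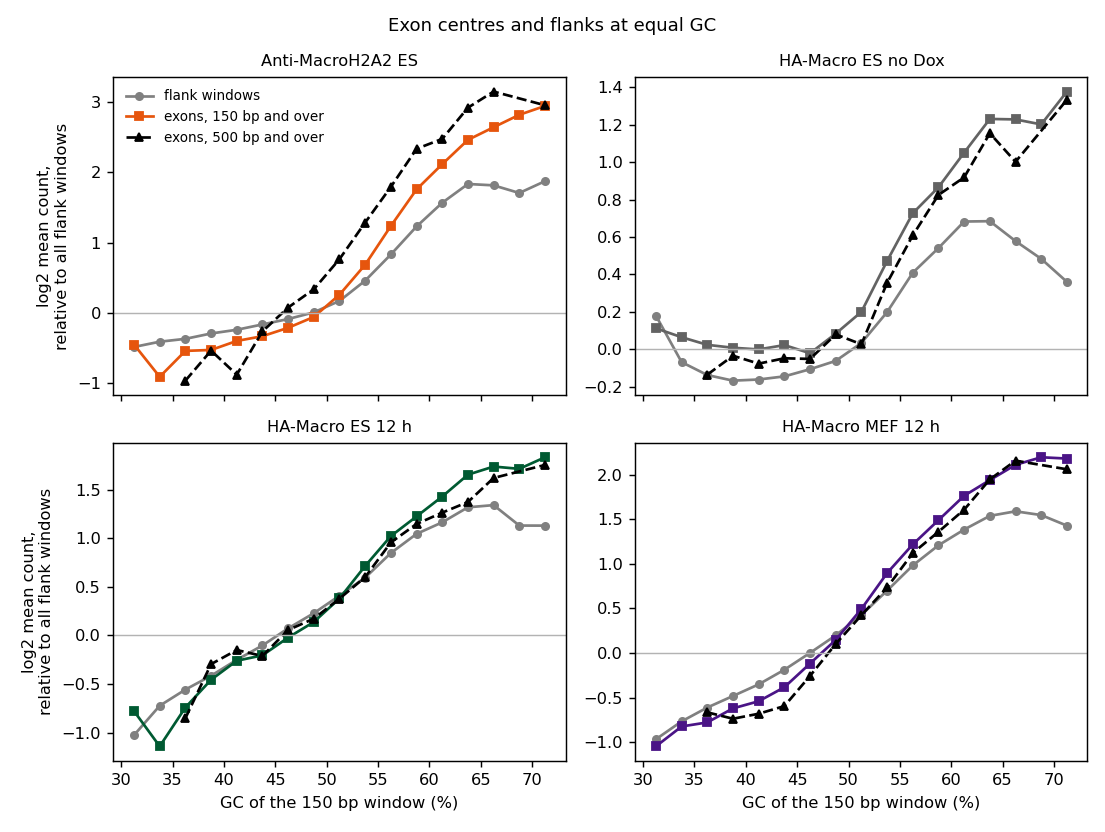
Log2 mean midpoint count of 150 bp windows relative to the mean of all flank windows (y axis) against the GC content of the window in percent (x axis), for flank windows (grey circles), centres of exons of 150 bp and over (colored squares) and of 500 bp and over (black triangles) in 4 libraries, for bins with at least 50 windows. The y axes differ in range. Flank windows do not climb throughout: without Dox they stand at 1.61 times the mean flank window at 62.5 to 65% GC and at 1.28 at 70 to 72.5%, where exon windows stand at 2.35 and 2.60. Over all GC the long exons stand above flank windows of equal GC by 0.82 on the log2 scale in anti-MacroH2A2 ES cells.

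Dox times were compared to follow newly made HA-Macro at exons relative to their flanks. In ES cells the ratio was 0.47 at 12 hours and 0.48 at 3 hours, a difference of -0.016 (interval -0.026 to -0.0055), with the same sign on 12 of 19 autosomes. In MEFs it was -0.084 (-0.096 to -0.071), with the same sign on 19 of 19. Between 6 and 12 hours the ratio by midpoints differed by 0.011 in each cell type, with intervals of 0.00024 to 0.022 in ES cells and -0.0018 to 0.024 in MEFs. By the excess within 400 bp the difference from 3 to 12 hours was -0.18 in ES cells and -0.096 in MEFs, and in ES cells the ratio was lower at 12 hours (0.38, 0.37 to 0.40) than at 6 hours (0.44, 0.42 to 0.45). The size and the timing in ES cells thus depended on the count used.

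In ES cells exons went from 753 midpoints per Mb per 1000000 reads at 3 hours to 615 at 6 hours and 608 at 12 hours, and stood at 520 without Dox. These levels are scaled to each library and are not absolute amounts. The log2 difference from 3 to 12 hours was -0.31 in exons and -0.29 in flanks, and that from 6 to 12 hours was -0.015 and -0.027. The difference thus lay between the 3 hour library, which also stood apart from the other HA-Macro libraries on chromosome Y, and the later ones. In MEFs exons differed by -0.051 and flanks by 0.033. Exons with 60% GC or more in ES cells differed in level from 3 to 12 hours by -0.37 and their flanks by -0.13, and exons under 40% GC by -0.81 and their flanks by -0.60. At 12 hours minus no Dox the level of the latter exons differed by -0.68. Exons with 60% GC or more differed in ratio by -0.23 (-0.26 to -0.21, 19 of 19 autosomes) and those under 40% GC by -0.21 (-0.26 to -0.15), while exons within 5 points of their flanks differed by -0.020.

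The ratio differed between ES cells and MEFs in opposite directions with the MacroH2A2 antibody and with HA-Macro. With the antibody the ratio was lower in MEFs by 0.25 (MEF minus ES -0.25, interval -0.26 to -0.23, on 19 of 19 autosomes). With HA-Macro it was higher in MEFs, by 0.21, 0.14 and 0.14 at 3, 6 and 12 hours (at 12 hours 0.13 to 0.15, on 19 of 19 autosomes). Exon levels were lower in MEFs with both, by log2 differences of -0.59 with the antibody and -0.35, -0.11 and -0.094 with HA-Macro, and those of the flanks were -0.34 and -0.56, -0.25 and -0.23. These levels are relative. The paper reports more MacroH2A2 in MEFs than in ES cells and holds that normalization overstates its apparent loss at MEF promoters. Both differences in ratio were smaller among exons with GC close to that of their flanks, at -0.083 (-0.11 to -0.057) for the antibody and -0.0074 (-0.029 to 0.014) for HA-Macro at 12 hours. In ES cells the antibody also exceeded HA-H3.3, by 0.34 over the 6 hour library and by 0.31 over the 3 hour library. These libraries share the interval length but differ in antibody and in histone, and none of them has a matched background.

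Exons of 500 bp and over were called 1 by 1, although a call can rest on few midpoints and so on counting error. An exon was called above its flanks when it held at least 1.5 times their midpoints per bp with at least 10 flank midpoints, and the background is every coding exon of that length, near promoters or not. With anti-MacroH2A2 in ES cells 1000 of 1642 members (60.9%) were above, against 59.1% of all such exons, and in MEFs 1179 of 2313 (51.0%) against 51.7%. HA-H3.3 gave 43.8% against 45.2% at 3 hours and 43.9% against 43.1% at 6 hours. Without Dox 827 of 2518 (32.8%) were above, against 34.4%. In HA-Macro ES cells the shares were 44.0% against 47.0% at 3 hours, 41.1% against 45.4% at 6 hours and 45.2% against 47.9% at 12 hours. In HA-Macro MEFs they were 48.0% against 49.8%, 45.2% against 47.3% and 46.9% against 49.0%. Members far from promoters were thus called about as often as this background, which includes them and so lessens any difference. In every HA-Macro library their share was the lower one.

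Gene lists were compared to see how the ratio varied with the kind of gene. The 515 distant exons of 39 DNA replication and repair genes were among the lowest, at 0.11 in anti-MacroH2A2 ES cells (interval -0.041 to 0.26) and -0.0036 without Dox, and their median GC, 45.6%, was the lowest of the 9 lists. Mki67, which encodes the proliferation antigen Ki-67, stood at -0.49 (-1.28 to 0.24) and 0.35 (-0.20 to 0.89) in these libraries. Prkdc, the catalytic subunit of DNA-dependent protein kinase, stood at -0.39 (-1.02 to 0.17) and 0.063 (-0.32 to 0.43), with intervals that include 0. Polq, a DNA polymerase of end joining, went the other way, at 0.17 (-0.50 to 0.78) and -1.05 (-1.84 to -0.35). The 68 exons of 21 pluripotency genes had the highest pooled ratio of the 9 lists with the antibody, at 1.45 in ES cells (1.20 to 1.68) and 0.89 in MEFs, and at 0.49 without Dox (0.23 to 0.75). Rest, a repressor of neuronal genes, stood at 2.12 in its 1 member in ES cells with the antibody, with a lower bound of 1.06. Without Dox it stood at 0.34 (-0.49 to 1.17). Of the 5-methylcytosine dioxygenases, Tet1 stood at -0.49 (-1.84 to 0.68) with the antibody in ES cells, on 8 exon midpoints. Without Dox Tet1 stood at -0.0090 (-0.89 to 0.81). Tet2 stood at 0.88 (0.061 to 1.63) and 0.26 (-0.68 to 1.09) in these libraries. The intervals of Tet1 and Tet2 overlap in both. By the median over single exons in anti-MacroH2A2 ES cells, again with 0.5 reads added to each count, the order differed. Cadherin and Fat family genes were highest (0.80), then pluripotency genes (0.77, over 33 exons) and striated muscle genes (0.64), against 0.50 over all members with at least 10 flank midpoints in that library. The other lists were lower, at 0.49 for cytoskeletal linkers, 0.42 for synapse and channel genes, 0.31 for chromatin regulators and 0.29 for extracellular matrix genes. Replication genes stood at 0.17 and ubiquitin ligase, translation and RNA processing genes at 0.13.

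Cadherin and Fat family exons stood at 0.84 in anti-MacroH2A2 ES cells and 0.54 without Dox, where their median GC was 54.0%. Chromatin regulators stood at 0.82 and 0.24, synapse and channel genes at 0.80 and 0.24, and extracellular matrix genes at 0.66 and 0.40. With HA-Macro at 12 hours the matrix list stood at 0.82 in MEFs and 0.77 in ES cells, a difference of 0.047 (-0.078 to 0.17). The difference was larger at 3 hours, 0.38 (0.24 to 0.52), and at 6 hours, 0.27 (0.11 to 0.42). With the antibody it was -0.18 (-0.34 to -0.020). The 3 genes of the matrix list with the most member bases spread widely. Vcan, a proteoglycan, stood at 0.014 in MEFs at 12 hours and -0.53 without Dox, Lama2, a laminin chain, at 0.54 and -0.11, and Fbn2, a microfibril protein, at 1.09 and 0.67. Cytoskeletal linkers stood at 0.49 and 0.26 and striated muscle genes at 0.46 and 0.29 in anti-MacroH2A2 ES cells and without Dox. The 179 members of Ttn, over 83991 bp, were nearly level with their flanks in every library, from -0.061 without Dox to 0.17 in HA-Macro MEFs at 3 hours. Flanks were not masked for other exons here, so those of closely spaced exons can hold coding sequence too. A ratio with masked flanks is not given for Ttn. Of the same list Ryr2, the cardiac ryanodine receptor, stood at 0.44 with the antibody in ES cells and 0.57 without Dox. Ubiquitin ligase, translation and RNA processing genes stood at 0.28 in anti-MacroH2A2 ES cells and 0.21 without Dox.

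Levels of some lists differed between times more than their ratios. In HA-Macro ES cells the exons of ubiquitin ligase, translation and RNA processing genes went from 982 midpoints per Mb per 1000000 reads at 3 hours to 519 at 6 hours and 482 at 12 hours. From 3 to 12 hours the log2 difference was -1.03, and -1.04 in their flanks. Without Dox these exons stood at 506. The ratio differed by 0.015 (-0.086 to 0.12). Exons of chromatin regulators stood at 1115, 603 and 579 and those of replication genes at 783, 446 and 394 at 3, 6 and 12 hours, with 12 minus 3 hour ratio differences of 0.058 (-0.042 to 0.16) and -0.054 (-0.19 to 0.079). Their levels without Dox were 522 and 431. Exons of striated muscle genes stood at 525, 573 and 617 against 498 without Dox, with a ratio difference of 0.0086 (-0.083 to 0.100). Of the 9 lists, only synapse and channel genes had a 12 minus 3 hour interval that did not include 0. Their ratio difference was 0.16 (0.057 to 0.27), and that from 6 to 12 hours was -0.0010 (-0.10 to 0.098). It thus lay between the 3 hour library and the later ones.

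The 10 longest members, at most 1 per gene, had a wide spread of ratios over the libraries. Each range given for them runs from the lowest to the highest library and includes counting error, whose part was not tested. Gvin1 and its near-copy Gm4070, which are among them, are described with the copies. The longest, chr2:76574121-76591226 in Ttn, is 17106 bp long with 46.4% GC against 41.9% in its flanks. It held 62 midpoints in anti-MacroH2A2 ES cells (log2 ratio -0.020), 146 in HA-Macro ES cells at 12 hours (0.51) and 74 without Dox (-0.62). Cmya5, a muscle protein, ranged from -0.57 to 0.90 and Muc5b, a gel-forming mucin with 46.6% of its 31-base windows found again in the genome, from -1.38 to 0.13. Mki67 ranged from -1.49 to 0.73, Apc, a negative regulator of Wnt signalling, from -0.81 to 0.87, Prune2 from -0.93 to 2.30, and Ankrd11, a chromatin-associated ankyrin repeat protein, from -0.50 to 1.38.

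The other named exons are extremes among the 2776 members of 500 bp and over, 3 per direction by the bound of their counting interval, and the library that chose an exon is not evidence for it. The other libraries share its sequence, and their values are given as a description. Gfod1, chosen in anti-MacroH2A2 ES cells with 44 midpoints in 917 bp against 7 in its flanks (log2 ratio 4.36), lay between 1.80 (without Dox) and 2.88 in the other 10 libraries. Pak6, a kinase gene chosen there too (4.27), lay between 1.41 and 3.19 elsewhere, with 1.93 without Dox. Tubb6, a β-tubulin gene, stood at 4.91 and was also chosen in HA-Macro ES cells at 3 hours (2.79), and lay between 0.95 (without Dox) and 2.73 elsewhere. Apba1, a neuronal adaptor with 70.0% GC in its first coding exon, was chosen in HA-Macro MEFs at 12 hours (2.91) and stood at 3.85 and 3.25 at 3 and 6 hours, against 1.89 and 1.72 in HA-Macro ES cells at 3 and 6 hours and 1.47 without Dox.

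Dspp, which encodes a repetitive protein of dentin, was among the highest in 4 of the 6 libraries searched. Its last coding exon, chr5:104605878-104607626, ranged from 1.43 without Dox to 4.44 with HA-H3.3 at 6 hours, and 26.3% of its 31-base windows occur again in the genome. Spred2, an inhibitor of Ras signalling, held 154 midpoints in 654 bp at 6 hours of HA-H3.3 against 49 in its flanks (3.85) and 47 against 13 at 3 hours (4.05), above its 1.09 to 2.74 in the other 9 libraries. Six4, a homeobox gene, held 45 against 14 at 6 hours (3.60) and stood at -0.50 without Dox. At the other end Lrrc37a, whose splice site is printed above, was below its flanks in all 11 libraries, from -1.06 to -2.68, with 38.6% of its windows repeated. Col8a2, a collagen gene, was low with HA-H3.3 at 6 hours (-2.27, 7 midpoints) and high with the antibody in ES cells and MEFs (2.18 and 2.21).

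Of the exons that differed most with the antibody between cell types, Prox1 and Plag1 rested on few reads. Prox1, a homeobox gene of lymphatic and liver development, held 20 exon midpoints and 1 flank midpoint in ES cells (5.12) and 17 and 26 in MEFs (0.19). Scaled to depth, its exon stood at 1357 in ES cells and 662 in MEFs and its flanks at 39.0 and 582 midpoints per Mb per 1000000 reads. Plag1, a zinc finger gene, held 1 exon midpoint in ES cells (-2.33) and 12 in MEFs (1.84), and stood at -0.74 without Dox. Fam50b stood at 2.42 in ES cells, 4.32 in MEFs and 1.43 without Dox. From 3 to 12 hours in HA-Macro ES cells, Klhl31 went from 3.29 to 1.00 and Jph2, a junctophilin of heart muscle, from 2.68 to 0.49. Both are rich in CpG, at 11.8 per 100 bp in Klhl31, and stood at 0.13 and 0.24 without Dox. Spatc1 went from 0.27 to 3.00 and stood at -0.51 without Dox.

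**Figure D5:**
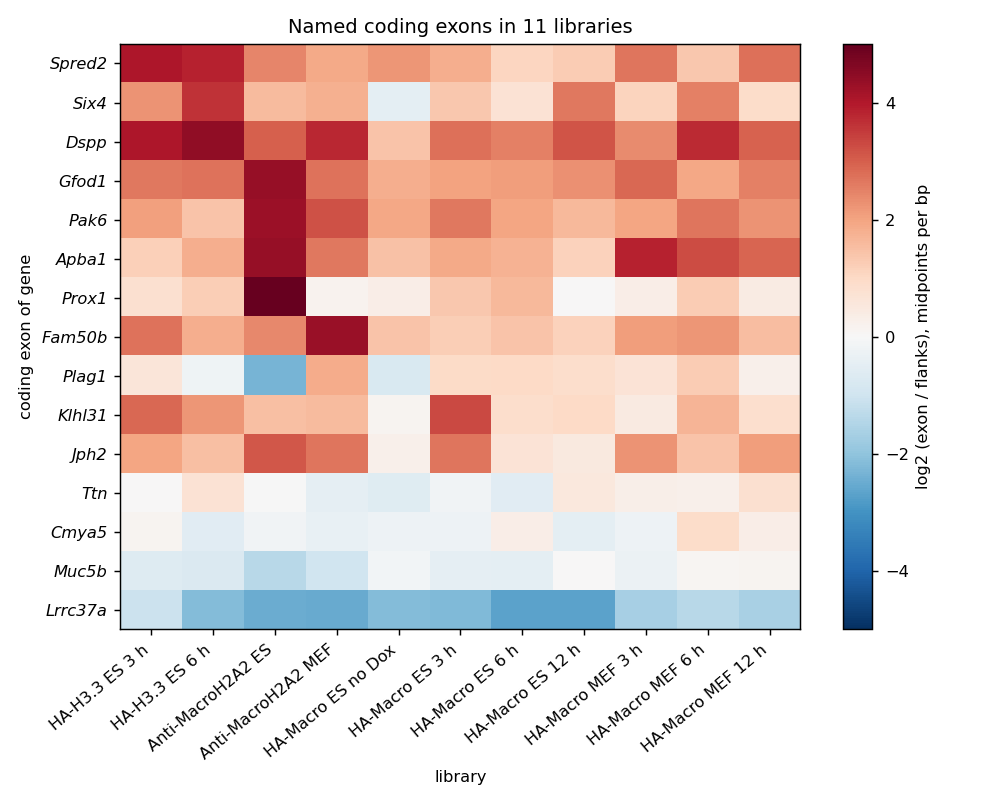
Log2 ratio of midpoints per bp in the exon over its flanks (color) for a selection of named exons (rows), chosen after their values were seen, in 11 libraries (columns). Gfod1 and Dspp are above 0 in every library and Lrrc37a is below 0 in every library.

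Exons with copies elsewhere in the genome behaved differently in the 2 sets of files. In 2554 members at least 50% of the 31-base windows occurred at another place, as in recent duplicates and genes with processed pseudogenes. Their ratio was -0.29 and -0.31 for HA-H3.3 at 3 and 6 hours and -0.035 and -0.16 for the antibody in ES cells and MEFs, but 0.14 without Dox and between 0.066 and 0.42 in induced HA-Macro libraries. In the 1110 members with at least 90% of windows repeated, exon levels were 157 to 213 for HA-H3.3, 165 and 116 for the antibody, and 291 to 466 midpoints per Mb per 1000000 reads in HA-Macro libraries. The exon of Gvin1, an interferon-inducible GTPase with 99.6% of its windows repeated, held 0 midpoints in all 4 libraries of 400 bp intervals and 10 to 30 in the 7 others. Gm4070, with 99.1% repeated, held 0 in the same 4 and 6 to 30 in the 7 others. Zbed4 and Hnrnpf, an RNA-binding splicing factor, with 96.4% and 97.7% repeated, held 0 to 2 and 0 to 1 against 8 to 30 and 3 to 25. Counts of 0 here allow up to 3 midpoints. How reads with several locations were treated in each set was not tested. In the 57860 members with no repeated window the ratios were higher than over all members, at 0.79 for the antibody in ES cells and 0.35 without Dox.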

How the data were processed

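Chromatin of mouse ES cells and MEFs was profiled by ChIP-Seq in 11 libraries, 1 per condition. Identical reads were merged by the authors with their number kept, aligned by Bowtie 1.0 (genome mm9, at most 1 mismatch, 1 location drawn at random for repeats), and deposited as interval coordinates per library, with no count or other score. The methods give 1 description, with 150 bp intervals, for all libraries, whereas 4 of the deposited files hold 400 bp intervals. The step that set this length is not given in the sources used here. Those 4 files also held 0.463% to 0.693% repeated intervals, against 3.27% to 6% in the others, and lower levels over exons with repeated windows. Whether reads with several locations were treated alike in both sets is not known. Repeated intervals were kept. Coding exons came from the GENCODE annotation of mm9, and the members and gene lists were chosen with earlier results of these data known. The 1% of 100 kb tiles with the most anti-HA reads without Dox were discarded. Midpoints were counted in exons and from 500 to 2000 bp to either side with Python 3.11.15, NumPy 2.4.6, pandas 2.3.3 and SciPy 1.17.1, and the counting was tested on simulated data. Intervals are exact Clopper-Pearson 95% for a ratio by midpoints in the exon and from the delta method for a difference. Those of the windows and of the excess within 400 bp are symmetric on the log2 scale. For the windows they cover the error of the exon midpoints only, and not that of the matched flank windows. Named exons were the 10 longest members, and among members of 500 bp and over the 3 with the highest lower bound and the 3 with the lowest upper bound of the counting interval in 6 libraries and 2 contrasts, with at most 1 per gene. Example genes of a list were those with the most member bases. Depth per library is given with the results. Alternative flanks, lengths, TSS definitions, counting and base composition were tried. Some exons that the naming rule selects are not reported here.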

Additional observations from a re-analysis of the deposited data

How the results depend on the processing

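Each pooled ratio stayed above 0 under every alternative run. Values that moved by more than their counting interval follow, in the order HA-H3.3 ES 3 and 6 hours, anti-MacroH2A2 ES and MEF, and HA-Macro ES without Dox and at 3, 6 and 12 hours and MEF at 3, 6 and 12 hours where no library is named, and the cause of each move was not tested.

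With annotated exons masked out of the flanks, the pooled ratio was 0.51, 0.49, 0.86, 0.56, 0.36, 0.55, 0.51, 0.52, 0.76, 0.65 and 0.66. With flanks starting 2000 bp from the exon, the pooled ratio was 0.47 for HA-H3.3 ES 3 h, 0.80 for anti-MacroH2A2 ES, 0.54 for anti-MacroH2A2 MEF, 0.34 for HA-Macro ES no Dox, 0.50 for HA-Macro ES 3 h, 0.47 for HA-Macro ES 6 h and 0.48 for HA-Macro ES 12 h. For exons of 200 bp or more, the pooled ratio was 0.64, 0.60, 1.05, 0.75, 0.36, 0.60, 0.53, 0.53, 0.77, 0.69 and 0.70. For exons with no repeated 31-base window, the pooled ratio was 0.48, 0.45, 0.79, 0.54, 0.35, 0.51, 0.48, 0.48, 0.71, 0.62 and 0.63. For exons with GC within 5 points of their flanks, the pooled ratio was 0.036, 0.0034, 0.12, 0.041, 0.058, 0.051, 0.043, 0.031, 0.074, 0.0043 and 0.024. As a median over single exons with at least 10 flank midpoints, with 0.5 reads added to each count, the ratio was 0.32, 0.37, 0.50, 0.45, 0.54, 0.56, 0.57, 0.58, 0.65, 0.55 and 0.64. With the excess within 400 bp assigned to the exon, the pooled ratio was 0.85 for HA-H3.3 ES 3 h, 0.79 for HA-H3.3 ES 6 h, 1.22 for anti-MacroH2A2 ES, 0.93 for anti-MacroH2A2 MEF, 0.37 for HA-Macro ES no Dox, 0.56 for HA-Macro ES 3 h, 0.44 for HA-Macro ES 6 h, 0.38 for HA-Macro ES 12 h and 0.70 for HA-Macro MEF 3 h. With base coverage in place of midpoints, the pooled ratio was 0.41 for HA-H3.3 ES 6 h, 0.73 for anti-MacroH2A2 ES, 0.52 for anti-MacroH2A2 MEF, 0.30 for HA-Macro ES no Dox, 0.45 for HA-Macro ES 3 h, 0.42 for HA-Macro ES 6 h, 0.43 for HA-Macro ES 12 h, 0.65 for HA-Macro MEF 3 h, 0.56 for HA-Macro MEF 6 h and 0.57 for HA-Macro MEF 12 h. With 1 TSS per gene, the pooled ratio was 0.41 for HA-H3.3 ES 6 h, 0.75 for anti-MacroH2A2 ES, 0.67 for HA-Macro MEF 3 h and 0.59 for HA-Macro MEF 12 h. For exons over 10 kb from any TSS, the pooled ratio was 0.75 for anti-MacroH2A2 ES, 0.49 for anti-MacroH2A2 MEF and 0.31 for HA-Macro ES no Dox. Without the 1% of exons with the most reads, the pooled ratio was 0.74 for anti-MacroH2A2 ES, 0.48 for anti-MacroH2A2 MEF, 0.47 for HA-Macro ES 3 h, 0.48 for HA-Macro ES 12 h, 0.58 for HA-Macro MEF 6 h and 0.59 for HA-Macro MEF 12 h. With every library thinned to the shallowest, the pooled ratio was 0.50 for anti-MacroH2A2 MEF and 0.62 for HA-Macro MEF 12 h. With exons of the discarded tiles kept, the pooled ratio in the 7 HA-Macro libraries was 0.30, 0.47, 0.44, 0.45, 0.67, 0.58 and 0.59. With 150 bp midpoints moved to both sides to imitate 400 bp intervals, the pooled ratio in the 7 HA-Macro libraries was 0.17, 0.29, 0.25, 0.25, 0.41, 0.36 and 0.36. With each distinct interval counted 1 time, the pooled ratio was 0.47 for HA-Macro ES 12 h.

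For internal exons, the difference between exons of 1000 bp and over and those of 100 to under 150 bp was 0.28, 0.24, 0.52, 0.38, -0.17, 0.0087, -0.059, -0.053, -0.17, -0.054 and -0.050. For exons with GC within 5 points of their flanks, the difference between exons of 1000 bp and over and those of 100 to under 150 bp was 0.0013 for HA-H3.3 ES 3 h, -0.044 for HA-H3.3 ES 6 h, 0.23 for anti-MacroH2A2 ES, 0.13 for anti-MacroH2A2 MEF, 0.0014 for HA-Macro ES 3 h, 0.23 for HA-Macro ES 12 h, 0.057 for HA-Macro MEF 3 h, 0.070 for HA-Macro MEF 6 h and 0.058 for HA-Macro MEF 12 h. With the excess within 400 bp assigned to the exon, the difference between exons of 1000 bp and over and those of 100 to under 150 bp was -0.13 for HA-H3.3 ES 3 h, -0.17 for HA-H3.3 ES 6 h, 0.093 for anti-MacroH2A2 ES, 0.0030 for anti-MacroH2A2 MEF, -0.12 for HA-Macro ES no Dox, 0.0060 for HA-Macro ES 3 h, 0.10 for HA-Macro ES 6 h, 0.012 for HA-Macro MEF 3 h, 0.033 for HA-Macro MEF 6 h and 0.051 for HA-Macro MEF 12 h. With 150 bp midpoints moved to both sides to imitate 400 bp intervals, the difference between exons of 1000 bp and over and those of 100 to under 150 bp in the 7 HA-Macro libraries was 0.16, 0.40, 0.37, 0.35, 0.44, 0.39 and 0.40. For exons of 100 to under 300 bp, last minus first coding exons was 0.038 for HA-H3.3 ES 3 h, 0.064 for anti-MacroH2A2 ES, -0.029 for anti-MacroH2A2 MEF, -0.11 for HA-Macro ES no Dox, -0.14 for HA-Macro ES 12 h, -0.086 for HA-Macro MEF 3 h, -0.15 for HA-Macro MEF 6 h and -0.085 for HA-Macro MEF 12 h.

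With annotated exons masked out of the flanks, the difference was -0.031 for HA-Macro ES, 12 h minus 3 h, -0.10 for HA-Macro MEF, 12 h minus 3 h and -0.29 for anti-MacroH2A2, MEF minus ES. With 6 hours in place of 3 hours, the difference was 0.011 for HA-Macro ES, 12 h minus 3 h and 0.011 for HA-Macro MEF, 12 h minus 3 h. With the excess within 400 bp assigned to the exon, the difference was -0.18 for HA-Macro ES, 12 h minus 3 h, -0.28 for anti-MacroH2A2, MEF minus ES and 0.23 for HA-Macro 12 h, MEF minus ES. For exons with GC within 5 points of their flanks, the difference was -0.050 for HA-Macro MEF, 12 h minus 3 h, -0.083 for anti-MacroH2A2, MEF minus ES and -0.0074 for HA-Macro 12 h, MEF minus ES. With base coverage in place of midpoints, the difference was -0.21 for anti-MacroH2A2, MEF minus ES. With each distinct interval counted 1 time, the difference was 0.13 for HA-Macro 12 h, MEF minus ES. Against flank windows of equal GC and CpG, the excess of centre windows of exons of 150 bp and over was -0.11 for HA-H3.3 ES 6 h.

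No paired analysis was possible because each condition has 1 library and the labels give no replicate numbers that groups share. Windows of equal GC or CpG, exons without repeated windows and the assigned excess were chosen after seeing the data. Of the values compared under other settings, beside those of the centre windows at other matches, 135 stayed within their counting interval, 157 moved beyond it and 12 changed sign. Depth limits single short exons, whose median count is 2 or less in every library.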
